A study of Homo sapiens with 4 samples.

Results

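The RAB GTPases are a family of small GTP-binding proteins that give membrane compartments their identity. Each RAB switches between a GTP-bound form on a membrane and a GDP-bound form in the cytosol. Exchange factors (GEFs) load GTP, GTPase-activating proteins (GAPs) speed its hydrolysis, and the GTP-bound form recruits effectors such as tethers, motors and sorting factors. Most RABs carry geranylgeranyl groups at the carboxyl end, which anchor them, and in squamous carcinoma cells they carry adhesion receptors and growth factor receptors into and out of the cell. Their mRNAs were followed here in SAS cells, a line from a human tongue squamous cell carcinoma.

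Members were the rows of the deposited count table whose gene name is RAB with a number and an optional letter from A to D, or RABL with a number from 2 to 6 and an optional letter. This rule found 61 of 35767 rows, of which 60 are protein coding in GENCODE release 29 and 1, RAB1C, is a processed pseudogene. The libraries labelled siNAT10 (replicates 1 and 2) were treated with an siRNA against NAT10, an RNA acetyltransferase, and the libraries labelled siControl (replicates 1 and 2) received a control siRNA. The genotype label of siNAT10 replicate 2 reads as a knockdown of NAT11 in place of NAT10, and that of the siControl libraries reads as wild type. The sample titles call the replicates biological, and no separate cultures are described. The p-values here cover the scatter among these 4 libraries alone, part of which may be technical.

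Library totals ran from 30794757 to 36341785 counts. NAT10 mRNA was no lower under the siNAT10 label. It stood at 253 and 248 CPM (the usual counts-per-million scale, on TMM-scaled totals) in the libraries labelled siNAT10, against 240.4 and 231 CPM in the siControl libraries, a log2 fold change of 0.09 ± 0.06 (SE, 95% interval -0.05 to 0.22, edgeR adjusted p = 0.293) that turned to -0.02 with libraries scaled by totals alone. The directions given here are therefore those of the libraries by their labels. Of 10 markers of squamous epithelium, 6 reached 1 CPM in every library, with KRT17 the highest. KRT5 and TP63 stayed below 1 CPM, CDH1 fell to 0.779 CPM in siNAT10 replicate 2, and KRT6A had no row. The summed level of that list was 1013 to 1058 CPM in the libraries labelled siNAT10 and 1476 to 1516 CPM in siControl. Within it KRT14, KRT17, EPCAM, ITGA6 and LAMB3 were called lower, and SFN was called higher (log2 fold change 0.17). The summed leukocyte markers were at most 0.722 CPM in the libraries labelled siNAT10 and at most 1.05 CPM in siControl. Endothelial markers summed to at most 3.76 CPM in the libraries labelled siNAT10 and 3.02 CPM in siControl. Among them PECAM1 was called lower (log2 fold change -2.29), VWF was called higher (3.04) and CDH5 was not called. Fibroblast markers summed to 21.0 to 22.7 CPM in the libraries labelled siNAT10 and 27.8 to 29.8 CPM in siControl. COL1A1 made up most of that, at mean levels of 20.8 CPM under the siNAT10 label and 27.9 CPM in siControl. It was called lower (log2 fold change -0.42). COL3A1, DCN, LUM and PDGFRA stayed below 1 CPM in every library. Melanocyte markers summed to 6.36 to 7.22 CPM in the libraries labelled siNAT10 and 4.81 to 7.38 CPM in siControl. PMEL made up most of these, at mean levels of 6.66 CPM under the siNAT10 label and 5.69 CPM in siControl, and was not called. MLANA and DCT stayed below 1 CPM in every library, and TYR had no row. The part of these lists in the RAB results was not tested.

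Of the 61 members, 56 had enough counts to be tested and 30 were called at an adjusted p of at most 0.05 (edgeR quasi-likelihood test, Benjamini-Hochberg). Under the siNAT10 label 14 of them rose and 16 fell. Over all 20098 genes tested, 40.4% were called, 19.7% higher and 20.7% lower, while the members' shares were 53.6%, 25.0% and 28.6%. With library totals alone as the scale, 8 members were called higher and 18 lower, and the median of all genes moved to -0.12. Of all genes, 41.3% were called on that scale. Without siNAT10 replicate 2 only 16 members were called, 8 in each direction, and without siControl replicate 1 the number called higher was 8. Among the 25 tested members whose exons overlap no other row, 8 were called higher and 5 lower. The shares of all genes called with a library left out, or among rows without overlap, are not given beside these counts. A loss of calls particular to RABs can therefore not be read from them. The median log2 fold change was 0.02 over the members tested and -0.01 over all genes tested. Taken without sign, the median was 0.30 over the members and 0.32 over all genes, so the members' median was no larger. Members and all genes were not matched for level, so these shares and medians are a description. RAB levels did not overlap between the groups for 46 of the 56 members, against a background of 69.5%. A change of at least 2-fold was called for only 1 member in each direction, RAB3B higher and RAB6C lower, where the background was 2.74% and 5.62%, or 8.36% in either direction. Summed over all members, the level per length was taken as RPKM (CPM divided by kilobases of exon). It was 753 and 771 in the libraries labelled siNAT10, against 684 and 730 in siControl. RAB7A alone made up 179 and 198 RPKM of that sum in the libraries labelled siNAT10, against 120 and 119 RPKM in siControl. On group means RAB7A rose by more RPKM than the sum did, so the other members together were not higher.

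**Figure D1:**
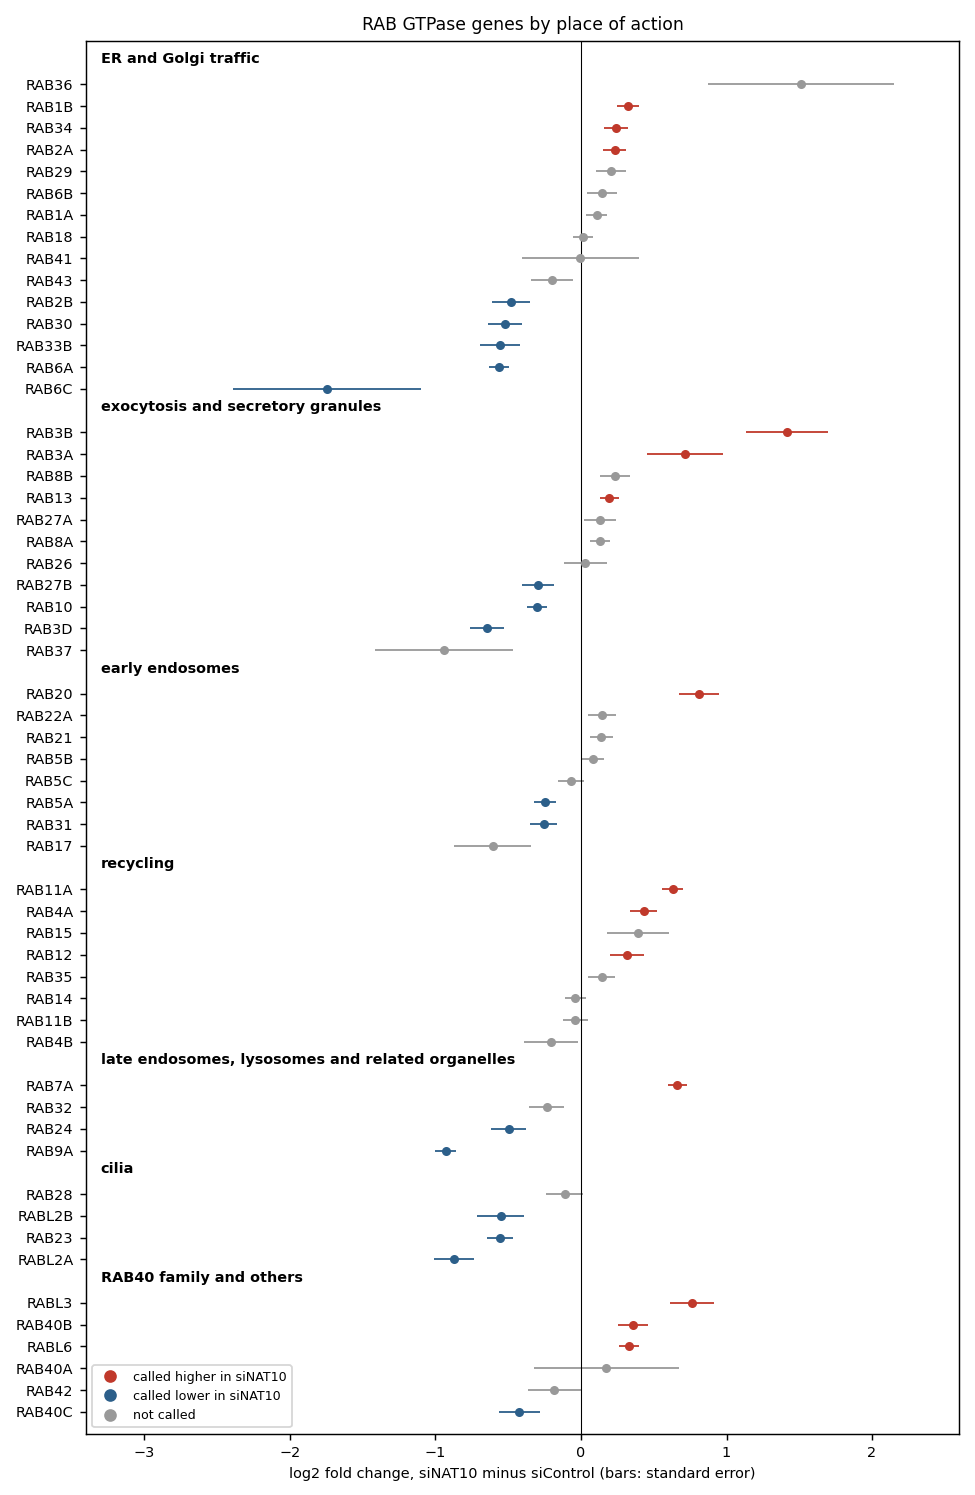
Log2 fold change (siNAT10 minus siControl, bars are the standard error) of the 56 tested RAB genes, grouped by where the protein acts. Red genes were called higher, blue genes lower and grey genes were not called. Each gene stands in 1 group only, so RAB34, which also acts in cilia, is drawn with the endoplasmic reticulum and Golgi. Called genes go both ways in most groups, as over all genes, where 19.7% were called higher and 20.7% lower.

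The upstream sequences of 4 genes are shown because they belong to the pairs on which the results turn. RAB7A and RAB9A were the most abundant member that rose and the called member above 1 CPM with the largest fall, and RABL2A and RABL2B are a recent duplicate pair that fell together. Each line gives the 250 bases before the RefSeq start on the gene's own strand (GRCh38.p14), with GC boxes (GGGCGG on either strand) in capitals.
RAB7A (chr3:128725933-128726182, plus strand): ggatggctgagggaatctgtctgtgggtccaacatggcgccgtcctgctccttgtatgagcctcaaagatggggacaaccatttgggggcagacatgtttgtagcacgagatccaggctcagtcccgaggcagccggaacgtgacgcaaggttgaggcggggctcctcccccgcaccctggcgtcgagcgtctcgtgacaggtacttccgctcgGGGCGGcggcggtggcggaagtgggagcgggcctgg
RAB9A (chrX:13688878-13689127, plus strand): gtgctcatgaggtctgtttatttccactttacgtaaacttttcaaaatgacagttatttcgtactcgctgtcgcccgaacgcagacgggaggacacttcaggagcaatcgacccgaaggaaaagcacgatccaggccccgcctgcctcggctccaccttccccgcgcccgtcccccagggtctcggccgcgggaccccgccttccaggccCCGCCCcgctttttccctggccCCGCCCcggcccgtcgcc
RABL2A (chr2:113627016-113627265, plus strand): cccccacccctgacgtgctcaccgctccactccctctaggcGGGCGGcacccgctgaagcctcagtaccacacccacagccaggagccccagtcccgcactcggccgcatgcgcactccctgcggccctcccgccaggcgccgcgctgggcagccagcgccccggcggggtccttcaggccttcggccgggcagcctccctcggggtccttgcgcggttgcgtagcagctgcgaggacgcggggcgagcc
RABL2B (chr22:50783637-50783886, minus strand): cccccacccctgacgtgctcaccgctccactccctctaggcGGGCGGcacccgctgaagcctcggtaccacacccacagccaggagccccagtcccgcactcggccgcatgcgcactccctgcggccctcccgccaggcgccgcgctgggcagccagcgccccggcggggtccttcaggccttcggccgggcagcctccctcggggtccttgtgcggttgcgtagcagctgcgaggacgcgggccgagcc
The RABL2A and RABL2B stretches were identical at 247 of 250 bases. A RefSeq upstream sequence was found for 50 members. The GC box occurred in 8 of 11 members called higher, in 12 of 15 called lower and in 17 of 21 not called, against 42.6% of 35116 upstream sequences of the same length. The E-box CACGTG, which reads the same on both strands, occurred in 1 of 11 members called higher, 3 of 15 called lower and 1 of 21 not called, against 6.34% of all. The cyclic AMP response element TGACGTCA was found only in RAB25, which was not tested, against 1.65% of all. These backgrounds cover upstream sequences of any gene, tested or not, and were not limited to 1 sequence per gene. A motif share particular to RABs can therefore not be read from them.

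Per length, a few members made up most of the family's mRNA. RAB7A, RAB13, RAB5C, RAB10, RAB9A and RAB1B together held 59.3% of the summed RPKM in the libraries labelled siNAT10 and 56.2% in siControl. RAB7A was the highest member in both groups, at 189 ± 12.8 RPKM in the libraries labelled siNAT10 and 119 ± 0.851 RPKM in siControl (SD, n = 2 each). RAB13 came next, at 106 ± 0.918 RPKM in the libraries labelled siNAT10 and 92.5 ± 4.55 RPKM in siControl. The level of RAB9A took rank 7 in the libraries labelled siNAT10, at 27.5 ± 0.593 RPKM, and rank 3 in siControl, at 52.5 ± 2.73 RPKM. RAB5C and RAB10 had 49.1 ± 1.97 and 38.2 ± 2.08 RPKM in the libraries labelled siNAT10 and 51.5 ± 8.65 and 47.1 ± 2.05 RPKM in siControl. In siControl the spread of RAB5C spanned its neighbours RAB9A and RAB10, so their order was not resolved there. At the low end, RAB25, RAB33A, RAB3C, RAB7B and RAB1C had 0 to 10 counts in each library and were not tested. RAB25, the epithelial relative of RAB11, had 2 and 0 counts in the libraries labelled siNAT10 and 5 and 0 counts in siControl.

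**Figure D2:**
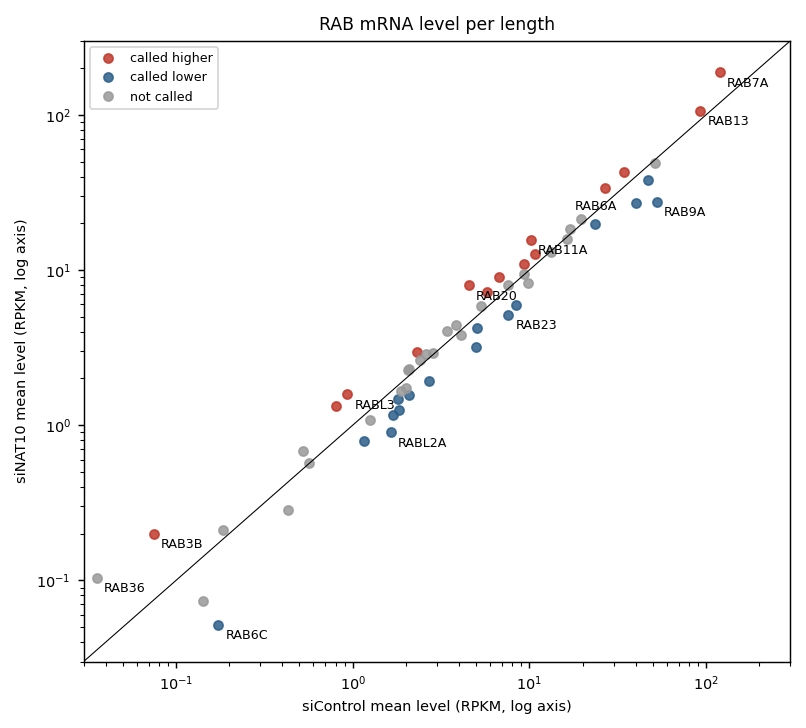
Mean level per length of each tested RAB gene in the libraries labelled siNAT10 (vertical, RPKM, log axis) against siControl (horizontal, RPKM, log axis), with the line of equal level. RAB7A lies highest at 189 and 119 RPKM, and RAB9A lies below the line at 27.5 and 52.5 RPKM.

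Of the 4 tested RABs of late endosomes, lysosomes and related organelles, 1 rose and 2 fell. The groups by site of action are small, and their counts are given as a description beside the 19.7% higher and 20.7% lower over all genes. RAB7A, which drives maturation of late endosomes and their fusion with lysosomes (chromosome 3, 128726122 to 128814796, GRCh38), had 487 and 537 CPM in the libraries labelled siNAT10, against 325 and 322 CPM in siControl. Both libraries labelled siNAT10 lay above both siControl libraries, a rise of 0.66 ± 0.07 on the log2 scale (SE, 2 libraries a group, edgeR adjusted p = 1.69e-07). RAB9A, which returns mannose 6-phosphate receptors from late endosomes to the Golgi (chromosome X, 13689125 to 13710506), had 57.4 and 59.2 CPM in the libraries labelled siNAT10, against 107 and 115 CPM in siControl. It was lower in both libraries labelled siNAT10, a change of -0.93 ± 0.07 on the log2 scale (edgeR adjusted p = 4.25e-09). Because both genes are read in the same library, their ratio does not depend on how libraries are scaled. RAB7A held 86.9% and 87.6% of the pair's summed RPKM in the libraries labelled siNAT10, against 70.3% and 68.5% in siControl. Neither row overlaps another row, and both calls held in 14 of 14 alternatives.

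RAB24, an atypical RAB linked to autophagy, had 12.8 and 11.8 CPM in the libraries labelled siNAT10, against 15.4 and 19.4 CPM in siControl. Its groups did not overlap, and it fell by 0.50 ± 0.12 on the log2 scale (edgeR adjusted p = 2.48e-03). MXD3 on the same strand covers 44.8% of its exon bases, so its counts are uncertain. RAB32, which works in lysosome-related organelles, had 10.5 and 9.62 CPM in the libraries labelled siNAT10 and 11.3 and 12.4 CPM in siControl, and was not called (log2 fold change -0.24 ± 0.12, edgeR adjusted p = 0.124).

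Among the RABs of recycling endosomes, 3 of 8 tested rose and none fell, so that 37.5% were called, against 40.4% of all genes. RAB11A, which returns cargo from the recycling endosome to the surface (chromosome 15, 65726054 to 65891991), had 85.7 and 92.8 CPM in the libraries labelled siNAT10, against 56.3 and 59.1 CPM in siControl. The groups were well apart relative to their spread, at a difference of 0.63 ± 0.07 on the log2 scale (edgeR adjusted p = 9.55e-07). Its close relative RAB11B was not called, at 31.7 and 32.4 CPM in the libraries labelled siNAT10 and 30.7 and 35.1 CPM in siControl (-0.04 ± 0.09, 95% interval -0.22 to 0.15). Per length, RAB11A thus supplied 54.0% and 55.5% of the RAB11A and RAB11B total in the libraries labelled siNAT10, against 44.4% and 42.2% in siControl. RAB4A, which acts in fast recycling from early endosomes (chromosome 1, 229271062 to 229305894), had 30.5 and 29.2 CPM in the libraries labelled siNAT10, against 21.2 and 23.2 CPM in siControl. It rose by 0.43 ± 0.09 on the log2 scale (edgeR adjusted p = 7.79e-04), although SPHAR and RP5-1061H20.3 overlap it. RAB12, which takes the transferrin receptor towards degradation, had 15.7 and 19.8 CPM in the libraries labelled siNAT10, against 13.7 and 14.7 CPM in siControl. It was called higher (0.32 ± 0.12, edgeR adjusted p = 0.0357), but not without siNAT10 replicate 2 (adjusted p = 0.457) or without siControl replicate 1 (0.0926), with a range of 3.13e-03 to 0.457 over its 13 alternatives. RAB14, RAB15, RAB35 and RAB4B were not called, with log2 fold changes from -0.21 to 0.39.

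In early endosomes, 1 of 8 tested members rose and 2 fell, again 37.5% called against 40.4% of all genes. RAB20, found on early endosomes and phagosomes (chromosome 13, 110523066 to 110561733), had 11.6 and 12.6 CPM in the libraries labelled siNAT10, against 5.94 and 7.87 CPM in siControl. Its groups did not overlap, and the difference was 0.81 ± 0.14 on the log2 scale (edgeR adjusted p = 1.19e-04). Of the RAB5 genes, which govern fusion of early endosomes, RAB5A had 75.7 and 74.1 CPM in the libraries labelled siNAT10, against 83.2 and 94.4 CPM in siControl. RAB5A was called lower (-0.25 ± 0.07, edgeR adjusted p = 0.0119), but not without siControl replicate 2 (adjusted p = 0.119) or siNAT10 replicate 2 (0.0958), in a range of 6.13e-05 to 0.119 over 13 alternatives. RAB5B and RAB5C were not called. RAB5C had 139 and 132 CPM in the libraries labelled siNAT10 and 125 and 159 CPM in siControl, and since CTD-2132N18.3 overlaps it on the same strand its counts are uncertain. Its log2 fold change was -0.07 ± 0.09, and it was -0.23 and called without siControl replicate 1 (edgeR adjusted p = 3.74e-03, range 3.74e-03 to 0.904) but 0.12 and not called without siControl replicate 2. RAB31, which acts between the Golgi and early endosomes, was also called lower at 24.6 and 22.6 CPM in the libraries labelled siNAT10, against 27.0 and 29.4 CPM in siControl (-0.26 ± 0.09, edgeR adjusted p = 0.0321). That call was lost without siNAT10 replicate 2 (adjusted p = 0.228) and without siControl replicate 2 (0.169), in a range of 3.16e-03 to 0.228 over 14 alternatives. RAB17, RAB21 and RAB22A were not called, with log2 fold changes from -0.61 to 0.14.

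For the endoplasmic reticulum and Golgi, 3 of 15 tested members were called higher and 5 lower, or 53.3% in all, against 40.4% of all genes. RAB6A, which moves vesicles out of and within the Golgi (chromosome 11, 73675638 to 73761137), had 133 and 133 CPM in the libraries labelled siNAT10, against 185 and 208 CPM in siControl. It was lower in both libraries labelled siNAT10, a change of -0.57 ± 0.07 on the log2 scale (edgeR adjusted p = 2.57e-06), and the antisense row RP11-707G14.1 covers 8.68% of its exon bases. RAB6B, the isoform best known from neurons, was not called, at 16.8 and 17.9 CPM in the libraries labelled siNAT10 and 15.8 and 15.5 CPM in siControl (0.15 ± 0.10). RAB6C, a primate retrogene of RAB6A, was called lower on 4 and 6 counts in the libraries labelled siNAT10, against 12 and 28 in siControl (-1.74 ± 0.65, edgeR adjusted p = 0.0378). The RAB6C call was lost without siNAT10 replicate 1 (adjusted p = 0.198), siNAT10 replicate 2 (0.0663) or siControl replicate 2 (0.511, log2 fold change -0.99), in a range of 0.018 to 0.511 over 11 alternatives. Of the 31-base words in its transcripts, 76.3% occur in transcripts of other genes, so its reads cannot be told from those of its relatives with certainty.

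RAB1B, which works in transport from the endoplasmic reticulum to the Golgi (chromosome 11, 66268533 to 66277492), had 83.0 and 89.4 CPM in the libraries labelled siNAT10, against 64.8 and 72.7 CPM in siControl. It rose by 0.33 ± 0.07 on the log2 scale (edgeR adjusted p = 1.69e-03), with 42.3% of its 31-base words shared with other genes, the largest part with an antisense neighbour. RAB1A, with the same function, was not called, at 53.2 and 55.0 CPM in the libraries labelled siNAT10 and 49.7 and 50.7 CPM in siControl (0.11 ± 0.07). The RAB2 genes, which act between the Golgi and the endoplasmic reticulum and at lysosomes, were called in opposite directions. RAB2A had 68.4 and 75.0 CPM in the libraries labelled siNAT10, against 56.8 and 65.4 CPM in siControl (0.23 ± 0.08, edgeR adjusted p = 0.0259). RAB2B had 7.31 and 6.67 CPM in the libraries labelled siNAT10, against 9.87 and 9.67 CPM in siControl (-0.48 ± 0.13, edgeR adjusted p = 6.07e-03). Without siNAT10 replicate 2 neither passed (adjusted p = 0.242 for RAB2A and 0.0531 for RAB2B), and RAB2A was also lost without siControl replicate 1 (0.202). Over the alternatives the range was 2.29e-04 to 0.242 for RAB2A and 1.25e-03 to 0.0531 for RAB2B.

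Further Golgi members fell. RAB33B, which links the Golgi to autophagosome formation, had 6.47 and 6.06 CPM in the libraries labelled siNAT10, against 9.82 and 8.68 CPM in siControl (-0.56 ± 0.14, edgeR adjusted p = 2.87e-03). The antisense row RP11-83A24.2 covers 13.8% of the RAB33B exon bases. RAB30, a Golgi RAB, had 14.5 and 13.2 CPM in the libraries labelled siNAT10, against 22.1 and 17.7 CPM in siControl (-0.52 ± 0.12, edgeR adjusted p = 1.21e-03). Groups did not overlap for either gene. RAB34, which acts in lysosome positioning and the assembly of cilia, had 36.3 and 37.0 CPM in the libraries labelled siNAT10, against 29.8 and 32.1 CPM in siControl (0.24 ± 0.08, edgeR adjusted p = 0.0249). The RAB34 call was lost when siNAT10 replicate 1 (adjusted p = 0.067), siNAT10 replicate 2 (0.119) or siControl replicate 1 (0.126) was left out, in a range of 0.01 to 0.212 over 14 alternatives. RAB18, RAB29, RAB36, RAB41 and RAB43 were not called. For RAB43 the read-through row ISY1-RAB43 covers 79.3% of its exon bases. RAB36 had 12 and 15 counts in the libraries labelled siNAT10 and 4 and 7 counts in siControl (1.51 ± 0.64, edgeR adjusted p = 0.0681).

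**Figure D3:**
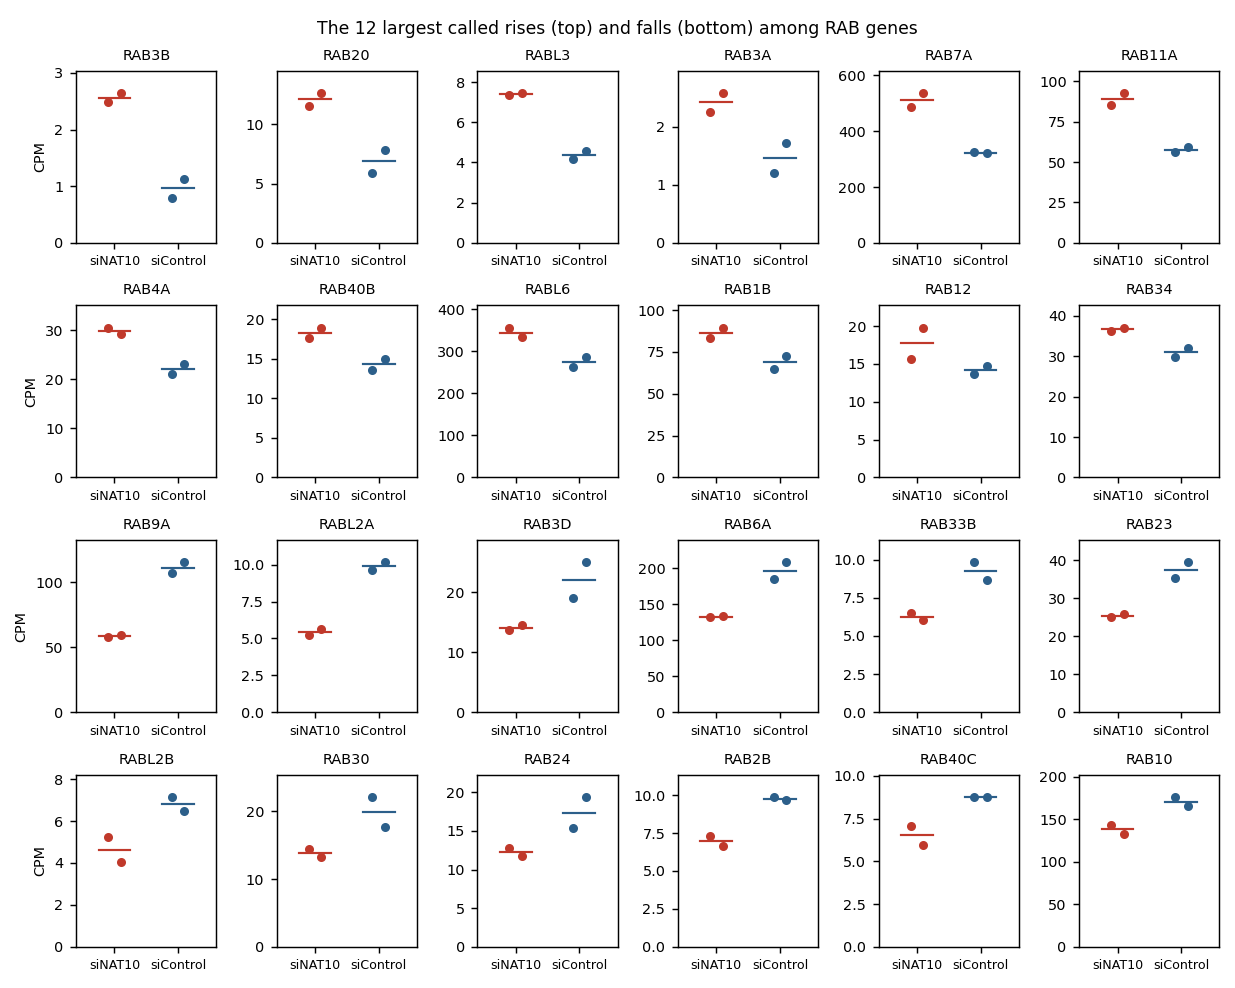
CPM in each library (dots, with the group mean as a line) for the 12 called RAB genes that rose most and the 12 that fell most among those at 1 CPM or more, with axes from 0. In these genes the libraries labelled siNAT10 and the siControl libraries do not overlap, and the step ranges from 2.67-fold for RAB3B to 1.18-fold for RAB34.

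For exocytosis, 3 of 11 tested members were called higher and 3 lower, or 27.3% each way, against 19.7% and 20.7% of all genes. The RAB3 genes, which act in regulated secretion, changed in opposite directions. RAB3B (chromosome 1, 51907956 to 51990764) had 2.49 and 2.64 CPM in the libraries labelled siNAT10, against 0.788 and 1.13 CPM in siControl. These are low levels, from 86 and 78 counts in the libraries labelled siNAT10 and 30 and 42 counts in siControl, and the rise was 2.67-fold (log2 fold change 1.42 ± 0.28, edgeR adjusted p = 4.39e-04). RAB3D, found on secretory granules of non-neuronal cells (chromosome 19, 11322046 to 11346270), had 13.6 and 14.5 CPM in the libraries labelled siNAT10, against 19.1 and 25.0 CPM in siControl. It fell by 0.64 ± 0.12 on the log2 scale (edgeR adjusted p = 2.21e-04), but 4 rows overlap it, and the overlapping TMEM205 had 353 and 364 counts in the libraries labelled siNAT10 and 603 and 782 counts in siControl. RAB3A, the synaptic vesicle member, had 2.25 and 2.58 CPM in the libraries labelled siNAT10, against 1.21 and 1.72 CPM in siControl (0.72 ± 0.26, edgeR adjusted p = 0.0351). That call was lost without siNAT10 replicate 2 (adjusted p = 0.14) and without siControl replicate 1 (0.247), in a range of 0.0149 to 0.247 over 13 alternatives. Summed over the subfamily, RAB3 stood at 4.52 and 4.91 RPKM in the libraries labelled siNAT10 and at 5.06 and 6.70 RPKM in siControl.

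RAB10 and RAB13, related RABs of basolateral transport and of junctions, also parted. RAB10 had 144 and 133 CPM in the libraries labelled siNAT10, against 176 and 166 CPM in siControl (-0.30 ± 0.07, edgeR adjusted p = 1.37e-03). RAB13 had 293 and 289 CPM in the libraries labelled siNAT10, against 246 and 263 CPM in siControl (0.19 ± 0.06, edgeR adjusted p = 0.0218). Their groups did not overlap in either gene. The RAB10 call was lost without siNAT10 replicate 2 (adjusted p = 0.0564, range 3.5e-06 to 0.0564). The RAB13 call was lost without siNAT10 replicate 1 (0.132), siNAT10 replicate 2 (0.109) or siControl replicate 1 (0.0748), and with library totals alone as the scale (0.322), in a range of 1.1e-03 to 0.322 over 14 alternatives.

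RAB27A and RAB27B direct late steps of granule and exosome release. RAB27B had 11.0 and 10.9 CPM in the libraries labelled siNAT10, against 13.7 and 13.1 CPM in siControl, and was called lower (-0.30 ± 0.11, edgeR adjusted p = 0.0411). This call was lost when any library was left out, with adjusted p from 0.0606 to 0.134, in a range of 6.67e-03 to 0.143 over 13 alternatives. RAB27A was not called, at 13.0 and 12.7 CPM in the libraries labelled siNAT10 and 12.2 and 11.3 CPM in siControl (0.13 ± 0.11). RAB8A, RAB8B, RAB26 and RAB37 were not called either, with log2 fold changes from -0.94 to 0.23.

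Of the 4 tested members grouped under cilia, 3 fell, or 75.0%, against 20.7% of all genes. RAB34, grouped with the Golgi above, also acts in cilia and was called higher. RABL2A, which binds ciliary transport particles (chromosome 2, 113627229 to 113643396), had 5.20 and 5.62 CPM in the libraries labelled siNAT10, against 9.64 and 10.2 CPM in siControl. Its duplicate RABL2B (chromosome 22, 50767501 to 50783663) had 5.23 and 4.03 CPM in the libraries labelled siNAT10, against 7.14 and 6.49 CPM in siControl. Groups did not overlap for either, and the log2 fold changes were -0.87 ± 0.14 for RABL2A (edgeR adjusted p = 4.16e-05) and -0.55 ± 0.16 for RABL2B (edgeR adjusted p = 0.0106). The RABL2B call was lost without siNAT10 replicate 2 (adjusted p = 0.131, log2 fold change -0.38, range 2.19e-03 to 0.131 over 13 alternatives). Since 44.8% of the 31-base words of RABL2A and 52.7% of those of RABL2B are shared with other genes, mostly with each other, the rows are not independent. RAB23, which acts in hedgehog signalling and ciliary transport (chromosome 6, 57186992 to 57222314), had 25.0 and 25.7 CPM in the libraries labelled siNAT10, against 35.2 and 39.4 CPM in siControl. Both libraries labelled siNAT10 lay below siControl (-0.56 ± 0.09, edgeR adjusted p = 4.35e-05), while the antisense gene BAG2 covers 57.7% of the RAB23 exon bases. RAB28 was not called (-0.11 ± 0.13). The RAB-like ciliary genes IFT27 and IFT22, whose names fall outside the member rule, were not called either. Their log2 fold changes were -0.14 ± 0.22 and 0.15 ± 0.12 (edgeR adjusted p = 0.656 and 0.332).

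Among the RAB40 genes, which carry a SOCS box and serve as adaptors of ubiquitin ligases, and other divergent members, 3 of 6 rose and 1 fell, or 66.7% called, against 40.4% of all genes. RABL3, a small member without the usual lipid-anchor motif (chromosome 3, 120686681 to 120742993), had 7.37 and 7.45 CPM in the libraries labelled siNAT10, against 4.15 and 4.58 CPM in siControl. It was higher in both libraries labelled siNAT10, by 0.76 ± 0.15 on the log2 scale (edgeR adjusted p = 4.53e-04). RABL6, a large RAB-like protein linked to proliferation (chromosome 9, 136807943 to 136841187), had 356 and 333 CPM in the libraries labelled siNAT10, against 262 and 285 CPM in siControl (0.33 ± 0.07, edgeR adjusted p = 5.81e-04). RAB40B, which guides metalloprotease secretion, had 17.7 and 18.9 CPM in the libraries labelled siNAT10, against 13.6 and 15.0 CPM in siControl (0.36 ± 0.10, edgeR adjusted p = 0.0101). RAB40C had 7.05 and 5.96 CPM in the libraries labelled siNAT10, against 8.74 and 8.76 CPM in siControl (-0.42 ± 0.14, edgeR adjusted p = 0.0198). RAB40B was lost without siNAT10 replicate 2 (adjusted p = 0.0784) or siControl replicate 1 (0.0625), and RAB40C without siNAT10 replicate 2 (0.174), in ranges of 3.34e-03 to 0.0784 and 4.56e-03 to 0.174. RAB40A and RAB42 were not called.

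Across the family, 11 numbered subfamilies had at least 2 tested members, 26 members in all. RAB2, RAB3 and RAB40, that is 3 of the 11, held calls in both directions. The calls of RAB2 and RAB40 were lost without siNAT10 replicate 2, as given above. Another 7 held calls in 1 direction only, and RAB8 held none. Shares within pairs do not depend on library scaling. The pairs were picked after the values were seen, so their shares are a description of the same counts. RAB3B made up 5.90% and 5.88% of the RAB3B and RAB3D total in the libraries labelled siNAT10, against 1.40% and 1.53% in siControl. RAB6A made up 90.6% and 90.1% of the RAB6A and RAB6B total in the libraries labelled siNAT10, against 93.5% and 94.3% in siControl. RAB8A, by contrast, made up 84.0% and 84.3% of the RAB8A and RAB8B total in the libraries labelled siNAT10, against an overlapping 86.2% and 84.0% in siControl.

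**Figure D4:**
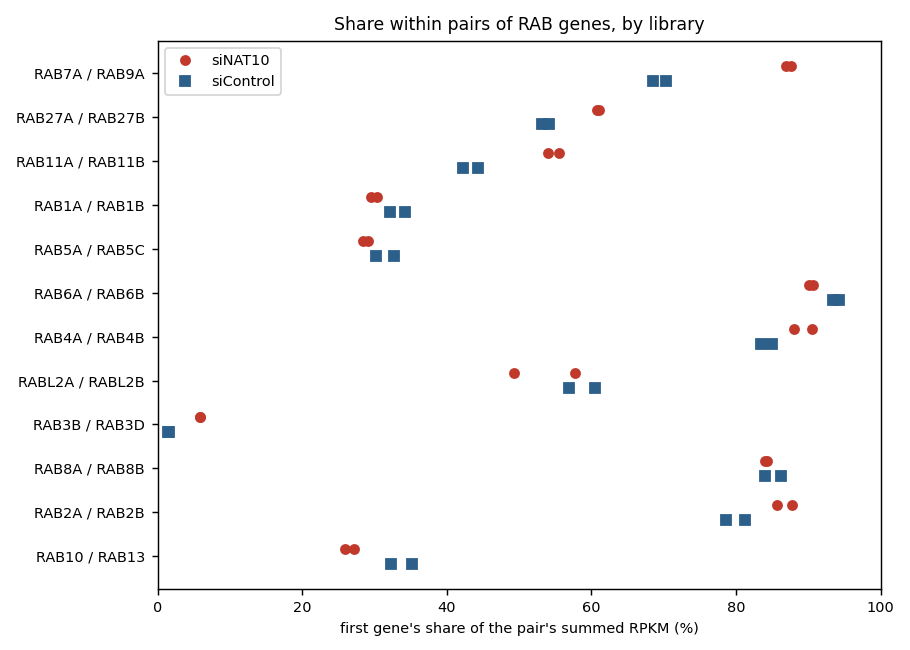
Share of the first gene in the summed RPKM of 12 pairs of RAB genes, in percent, with red dots for the libraries labelled siNAT10 and blue squares for siControl. The RAB7A share of the RAB7A and RAB9A total lies at 86.9% and 87.6% in the libraries labelled siNAT10 and at 70.3% and 68.5% in siControl, while the RAB8A share lies close together in all 4 libraries.

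The proteins that load, switch and read RABs were described from lists of such genes, to be read against the 40.4% called over all genes. In the list for prenylation and GDI, 3 of 10 tested genes rose and 1 fell, and 1 rose without siNAT10 replicate 2 or siControl replicate 2. RABGGTB, the catalytic subunit of the RAB geranylgeranyl transferase, had 99.0 and 105 CPM in the libraries labelled siNAT10, against 59.5 and 54.8 CPM in siControl. Its groups lay far apart (0.84 ± 0.07, edgeR adjusted p = 2.38e-08), although the exons of ACADM and 3 small nucleolar RNA rows overlap it. RABAC1, a prenylated RAB acceptor, had 11.4 and 11.9 CPM in the libraries labelled siNAT10, against 17.4 and 20.2 CPM in siControl (-0.69 ± 0.11, edgeR adjusted p = 4.71e-05). The escort protein CHML had 114 and 115 CPM in the libraries labelled siNAT10, against 103 and 100.3 CPM in siControl, and rose by 0.18 ± 0.07 on the log2 scale (edgeR adjusted p = 0.0389). Its call was lost without siNAT10 replicate 1 (adjusted p = 0.152), siNAT10 replicate 2 (0.184) or siControl replicate 2 (0.0772), and with the replicate block (0.0638), in a range of 0.0148 to 0.468 over 13 alternatives, and OPN3 overlaps it.

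Of 44 genes of GEFs, 4 rose and 9 fell, or 29.5% called, against 40.4% of all genes. The balance depended on scaling, with 2 higher and 16 lower under library totals alone and 7 each way under upper-quartile scaling. DESeq2, and edgeR without siNAT10 replicate 1 or siNAT10 replicate 2, gave 2 higher and 5 lower. DENND5B, of the DENN family of exchange factors, had 18.1 and 17.7 CPM in the libraries labelled siNAT10, against 37.3 and 35.6 CPM in siControl (-1.03 ± 0.09, edgeR adjusted p = 2.35e-08). RGP1, the partner of RIC1 in the exchange factor for RAB6, had 33.4 and 29.6 CPM in the libraries labelled siNAT10, against 40.9 and 43.9 CPM in siControl (-0.43 ± 0.09, edgeR adjusted p = 5.14e-04). The TRAPP complexes, which activate RAB1 and RAB11, had 7 subunits in the list, with no common direction. TRAPPC4 (0.67 ± 0.10) and TRAPPC2L (0.78 ± 0.14) rose. Both overlap other genes, as do TRAPPC1 and RGP1. TRAPPC1 (-0.54 ± 0.16, edgeR adjusted p = 0.0103) and TRAPPC9 (-0.52 ± 0.13, edgeR adjusted p = 2.66e-03) fell, while TRAPPC3, TRAPPC5 and TRAPPC10 were not called. The TRAPPC1 call was lost without siNAT10 replicate 2 (adjusted p = 0.0722) or siControl replicate 2 (0.192, log2 fold change -0.32), in a range of 1.7e-04 to 0.192 over 13 alternatives. Of 37 genes of GAPs, 7 rose and 8 fell, or 40.5% called. Library totals alone gave 3 higher and 12 lower, and DESeq2 gave 6 and 4. TBC1D14, which binds RAB11 and regulates autophagy, had 52.9 and 55.2 CPM in the libraries labelled siNAT10, against 34.2 and 33.8 CPM in siControl (0.67 ± 0.08, edgeR adjusted p = 1.00e-06). SGSM2 (-0.67 ± 0.08), TBC1D10B (-0.52 ± 0.08) and TBC1D4 (-0.49 ± 0.07), the substrate of AKT in insulin-regulated transport, fell. Other rows overlap TBC1D14, SGSM2 and TBC1D10B.

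Effectors were called at 44.9%, with 10 of 49 higher and 12 lower, against 8 and 21 with library totals alone. SYTL4, or granuphilin, which docks granules through RAB27 and RAB3, had 0.116 and 0.102 CPM in the libraries labelled siNAT10, against 3.05 and 2.86 CPM in siControl. These values rest on 4 and 3 counts in the libraries labelled siNAT10, against 116 and 106 counts in siControl (log2 fold change -4.71 ± 0.40, edgeR adjusted p = 1.87e-08). MLPH, which ties RAB27A to myosin Va and is named after its values were seen, had 0 and 0 counts in the libraries labelled siNAT10, against 14 and 18 counts in siControl, at least 4.19-fold lower at a floor of 3 counts per library. MYO5A, the myosin Va heavy chain, rose to 48.4 and 50.2 CPM in the libraries labelled siNAT10, against 32.4 and 25.3 CPM in siControl (0.77 ± 0.10, edgeR adjusted p = 3.19e-06). OPTN, an effector of RAB8 and an autophagy receptor, had 227 and 219 CPM in the libraries labelled siNAT10, against 351 and 348 CPM in siControl (-0.65 ± 0.06, edgeR adjusted p = 1.31e-07). RABEP2, an effector on endosomes, fell by 0.77 ± 0.12 on the log2 scale. Other rows overlap OPTN and RABEP2, and also PLEKHM1, OSBPL1A and GCC2 below.

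The 8 listed effectors of RAB7 and RAB9 were looked at after the values of these RABs were seen, and they had no common direction. VPS41 and VPS39, subunits of the HOPS tether that joins late endosomes to lysosomes, rose by 0.49 ± 0.08 and 0.34 ± 0.08 on the log2 scale (edgeR adjusted p = 3.52e-05 and 1.94e-03). RILP and PLEKHM1, which join RAB7 to dynein and to HOPS, fell, with log2 fold changes of -0.60 ± 0.21 and -0.47 ± 0.13 (edgeR adjusted p = 0.0254 and 6.99e-03). The RILP call was lost without siNAT10 replicate 2 (adjusted p = 0.214) and without siControl replicate 2 (0.117), in a range of 9.58e-03 to 0.214 over 14 alternatives. OSBPL1A, a sterol sensor that binds RAB7, was called higher (0.24 ± 0.07, edgeR adjusted p = 0.0109), but not without siNAT10 replicate 1 (0.0827) or siControl replicate 1 (0.0569), in a range of 1.2e-03 to 0.149 over 13 alternatives. FYCO1, which joins RAB7 to kinesin, was not called (0.02 ± 0.07, edgeR adjusted p = 0.806). Of the RAB9 effectors, RABEPK rose by 0.53 ± 0.12 on the log2 scale (edgeR adjusted p = 2.04e-03). GCC2, a golgin of the trans-Golgi, was not called (-0.18 ± 0.07 on the log2 scale, edgeR adjusted p = 0.0505). It was called lower without siControl replicate 2 (-0.26, adjusted p = 6.07e-04) and in 4 other alternatives, in a range of 6.07e-04 to 0.323 over 13.

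**Figure D5:**
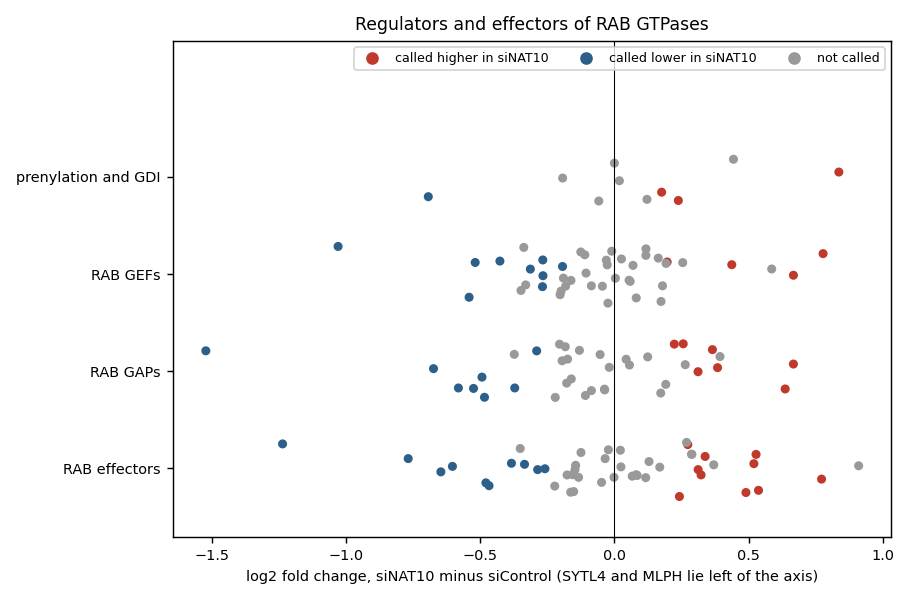
Log2 fold change (siNAT10 minus siControl) of tested genes in 4 lists of RAB regulators and effectors, with red for called higher, blue for called lower and grey for not called. The vertical spread within a list is arbitrary, and SYTL4 at -4.71 and MLPH lie off the axis to the left.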

How the data were processed

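Total RNA from the 4 libraries was extracted with TRIzol and made into mRNA libraries with the KC Digital kit, per the labels' protocols. The submitters' processing notes name fastp 0.23.4, STAR 2.5.3a, featureCounts and GRCh38. For the annotation release and strand setting, nothing is given in the sources used here. What the authors deposited is 1 table of unnormalized gene counts. From 72.0% to 73.5% of counts of 1 to 50 are even, so mates of a pair appear to be counted separately. Without a stated strand setting, reads of overlapping and antisense genes cannot be told apart, and 31 of the 61 members overlap another row. Among called members, other rows also overlap RAB12, RAB27B, RAB2B, RAB33B, RAB3A, RAB40C, RAB5A, RAB6C, RABL2B, RABL3 and RABL6. The deposited gene length gave RPKM.

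Counts were tested in R 4.3.3 with edgeR 4.0.16 (quasi-likelihood, robust, filterByExpr, TMM, group only, 2 residual degrees of freedom), two-sided. P-values were adjusted over 20098 genes by Benjamini and Hochberg, with a threshold of 0.05. CPM uses TMM-scaled totals, and 3 counts are 0.0825 to 0.0974 CPM of the unscaled totals. Replicates of a group differed beyond counting noise (chi-square per degree of freedom 3.84 in the libraries labelled siNAT10 and 6.07 in siControl). That measure takes every count as independent, so it overstates the excess if mates of a pair were counted separately. Members, lists, role groups and tests were chosen with earlier results of these data known. Of the entries in the role groups, 6 have no row and were not analysed here. Per-library values are given for the 12 called members that rose most, the 12 that fell most (with the higher group at 1 CPM or more) and the 6 most abundant per length, with up to 4 called genes per regulator list, and further members as stated. Shared 31-base words were counted on both strands against GENCODE release 29 transcripts. Alternatives changed scaling, filter, test (DESeq2 1.42.0), halved counts, overlapping rows, the replicate block and left out each library. The values of 1 further gene in the regulator lists are not reported here.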

Additional observations from a re-analysis of the deposited data

How the results depend on the processing

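Of the 30 called members, 16 kept direction and call in every alternative that tested them, 14 lost the call in at least 1, and 0 changed direction. DESeq2 lost 8 of these calls, library totals alone 6, upper-quartile scaling 2, and leaving out siNAT10 replicate 1, siNAT10 replicate 2, siControl replicate 1 or siControl replicate 2 lost 4, 14, 7 and 4. A group left with 1 library was assumed to vary like the other group. The cause was not tested for any of these shifts. The share of calls lost over all genes is not given beside these losses, so a loss particular to RABs cannot be read from them. Of all genes, 41.3% were called with totals alone and 40.6% with upper-quartile scaling, against 40.4% in the main test. All 6 calls lost with totals alone were of members called higher. Not every alternative that lost a call is named above. The call was lost in 5 of 14 alternatives for RAB34, 4 of 14 for RAB2A and RAB31, and 3 of 14 for RAB40B. It was lost in 4 of 13 for RAB12 and RAB3A, 6 of 13 for RAB27B and 2 of 13 for RAB40C. For RAB6C it was lost in 4 of 11. Outside the members, it was lost in 7 of 13 for CHML, 3 of 14 for RILP and 3 of 13 for OSBPL1A. With totals alone, 8 members were called higher and the RAB GTPases median log2 fold change was -0.0898. The median was -0.044 with no count filter, which adds members at very low counts. Among rows that overlap no other row, which leaves 25 members, 8 were called higher and 5 lower, with a median of 0.14. Leaving out 1 library gave 8 to 15 members higher and 8 to 17 lower, and a median from -0.02 to 0.08.

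For the lists, totals alone gave 3 GAPs higher, 2 GEFs higher and 16 lower, 21 effectors lower, and 1 prenylation gene higher. Upper-quartile scaling gave 7 GEFs higher. DESeq2 gave 4 GAPs lower, 2 GEFs higher and 5 GEFs lower. Rows without overlap, a smaller set, gave 2 GAPs higher and 4 lower, 1 GEF higher and 5 lower, 6 effectors higher and 5 lower, and 1 prenylation gene higher. Leaving out 1 library gave 2 to 5 GEFs higher, 5 to 10 lower, and 1 to 3 prenylation genes higher. Single genes that turned were NAT10 and FYCO1, at -0.024 and -0.087 with totals alone, FYCO1 at -0.0099 to 0.065 over the libraries left out, and RAB5C, at -0.23 without siControl replicate 1 and 0.12 without siControl replicate 2.

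The replicate number did not pair the libraries (correlation of same-numbered deviations -0.03). With it as a replicate block, 14 members were called higher and 16 lower, with a median of 0.02, and all 30 calls were kept. Among the other genes named, CHML lost its call under the block. The count filter left out the 5 members with at most 10 counts in every library, and without the filter all 61 were tested and 30 called. Of all 35767 genes tested without the filter, 22.7% were called.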
